A study of Mus musculus with 26 samples.

Results

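Killer lectin receptors are C-type lectin-like proteins that NK cells and some activated CD8+ T cells carry on their surface, where inhibitory members recruit phosphatases and activating members signal through small adaptor proteins. CD94, encoded by Klrd1, pairs with NKG2A (Klrc1) to form an inhibitory receptor, or with NKG2C (Klrc2) to form an activating receptor, and both pairs bind the non-classical MHC molecule Qa-1. NKG2D (Klrk1) is an activating receptor for stress-induced ligands, and KLRG1 (Klrg1) is an inhibitory receptor for cadherins that is widely used to mark short-lived effector CD8+ T cells.

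The RNA of 8 such genes, Klrg1, Klrd1, Klrc1, Klrc2, Klrk1, Klrb1c, Klre1 and Klra7, was followed in TCRTg101, CD8+ T cells whose transgenic T cell receptor recognizes C1498, a leukemia line of C57BL/6 origin. The genes were chosen by name from 35944 annotated genes, and all 8 passed the filter on low counts, which required at least 10 counts in at least 6 libraries. All mice were labelled C57BL/6, 6 week old and wild type, and the cells were sorted at a given day of adoptive transfer. The control group held 2 day 0 libraries labelled naive Tg101 and 1 day 18 library from leukemia-free mice, labelled Tg101 from untreated mice. All were from spleen, and the group thus joined naive day 0 cells with day 18 cells. Undivided cells, which had kept their dye label, came from the spleen of a leukemia-bearing mouse at day 18 (n = 1). Liver cells of leukemia-bearing mice formed an early group at day 7 (n = 2), a mid group at days 13 and 14 (n = 3) and a late group at days 16 and 18 (n = 2), and spleen cells of such mice formed an early group at day 7 (n = 2) and a mid group at day 14 (n = 1). TCRTg101 all share the same receptor, so other CD8+ T cell clones were not sampled. The labels do not say whether libraries of a group came from separate mice, so p-values measure only the spread between these libraries, which may be technical.

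Library totals ranged from 22918996 to 71358287 estimated counts. Levels are given as CPM, the count relative to the library total after scaling by trimmed mean of M-values factors, and levels of different genes are compared only in TPM, the transcript share on a fixed total, which corrects for transcript length. T cell markers summed to between 3144 and 7070 CPM in every library. The early liver libraries differed from each other, and early liver replicate 2 did not exceed the highest control for any member. The day 0 controls held RNA of other cell types, with red cell markers summing to 5220 and 20346 CPM and NK cell markers to 321.5 and 36.6 CPM, while the day 18 control had 136.0 and 3.08 CPM. Myeloid markers summed to 615.4 and 124.3 CPM in the day 0 controls and 18.6 CPM in the day 18 control. In control replicate 1 Tyrobp alone gave 151.8 CPM of the NK marker sum, and Ncr1 gave 1.99 CPM. Which cells the RNA of these markers came from was not tested. In liver the 8 NK cell markers summed to 9.28 and 1.97 CPM in the early, 16.7, 7.25 and 7.71 CPM in the mid and 33.3 and 44.5 CPM in the late libraries, so the sum was higher in late liver than in early and mid liver, as were Klrc1 and Klrk1 by group mean. Ncr1 was at 0 counts in the early liver libraries and mid liver replicates 1 and 2. It had at most 0.475 CPM in the other liver libraries. In both late liver libraries Klra8 was the only marker of the 8 at 0 counts, and the rest were detected. Hepatocyte markers reached 261.9 CPM in late liver replicate 1 and 61.5 CPM in late liver replicate 2. The part of these other cells in the results was not tested.

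All 8 genes lie on mouse chromosome 6 (GRCm38), 7 of them in the NK gene complex. Klre1, Klrd1, Klrk1, Klrc2 and Klrc1 follow each other within 101.1 kb. The upstream regions of Klrk1, Klrc2 and Klrc1 are shown because these neighbours were the members that edgeR called higher in mid and late liver. Klre1 was also above every control in each mid and late liver library but was not called, and its regions are not shown. Each sequence runs from 250 bases before a RefSeq transcript start to 50 bases after it, on the strand of the gene, which is the minus strand for all 3. Capitals mark a Runx motif (TGTGGTT) or an AP-1 motif (TGANTCA).

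Klrk1, chr6:129623815-129624114 (GRCm38.p6, minus strand): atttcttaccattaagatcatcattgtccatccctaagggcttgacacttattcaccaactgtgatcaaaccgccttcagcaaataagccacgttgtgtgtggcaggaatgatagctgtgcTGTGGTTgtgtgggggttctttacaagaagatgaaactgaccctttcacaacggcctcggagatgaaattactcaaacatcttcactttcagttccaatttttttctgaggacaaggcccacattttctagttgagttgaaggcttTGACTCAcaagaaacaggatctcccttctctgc

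Klrc2, chr6:129660547-129660846 (GRCm38.p6, minus strand): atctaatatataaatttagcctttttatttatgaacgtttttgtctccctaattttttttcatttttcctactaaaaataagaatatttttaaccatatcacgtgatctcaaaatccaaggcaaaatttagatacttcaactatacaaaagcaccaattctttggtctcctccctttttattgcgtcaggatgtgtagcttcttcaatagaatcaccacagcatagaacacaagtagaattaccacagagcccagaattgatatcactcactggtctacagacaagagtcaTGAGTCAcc

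Klrc1, chr6:129678924-129679223 (GRCm38.p6, minus strand): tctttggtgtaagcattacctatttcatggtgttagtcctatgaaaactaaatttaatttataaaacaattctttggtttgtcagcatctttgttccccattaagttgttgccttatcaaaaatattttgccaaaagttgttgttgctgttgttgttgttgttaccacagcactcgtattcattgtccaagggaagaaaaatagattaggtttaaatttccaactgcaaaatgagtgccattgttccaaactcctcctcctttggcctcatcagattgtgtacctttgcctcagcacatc

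The Klrk1 region held 1 Runx match starting 129 bases before the transcript start and 1 AP-1 match starting 17 bases after it. The Klrc2 region shown held 1 AP-1 match starting 41 bases after its transcript start, and the Klrc1 region held neither motif. For another Klrc2 transcript start, whose region is not shown, the same match started 1 base after the start. No T-box motif (GGTGTGA) was found in any region of the 6 members with an entry. Among 32851 mouse promoters of 300 bases, 5.27% held the Runx letters, 7.81% the AP-1 letters and 3.98% the T-box letters on either strand. These matches are descriptions of the sequence, and binding was not measured.

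Klrc1, the inhibitory NKG2A chain, was nearly silent in control cells and became abundant in the liver. Klrc1 measured 1.47, 0.684 and 0.357 CPM in the 3 controls. In mid liver it measured 62.1, 99.9 and 156.8 CPM, and in late liver 132.9 and 192.3 CPM. All 5 of these libraries lay far above all 3 controls. The log2 fold change was 6.88 ± 1.46 (SE) in mid liver (adjusted p = 0.0227, edgeR quasi-likelihood test with Benjamini-Hochberg adjustment) and 7.50 ± 1.51 in late liver (adjusted p = 0.0141, same test). In the early liver the libraries were split, with 60.7 CPM in replicate 1 and 0.972 CPM in replicate 2, which sat within the control range. The late liver level was 90.6 times the control level in the TG series of libraries and 369.5 times in the XC series, with 1 late library in each, so the direction was the same within either series. Leaving out control replicate 1, late liver replicate 1 or late liver replicate 2 ended the late liver call (edgeR adjusted p = 0.0602, 0.0804 and 0.081), although the log2 fold change stayed between 7.11 and 8.60 whichever library was left out. The mid liver call was lost without any 1 of the controls (edgeR adjusted p = 0.0523 to 0.102) and without mid liver replicate 1 or 3 (edgeR adjusted p = 0.1 and 0.0878).

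Klrc2, the activating NKG2C chain, rose as well but stayed at a low level. It measured 0.839, 1.27 and 0.422 CPM in controls, 9.65, 9.94 and 10.9 CPM in mid liver, and 7.76 and 13.5 CPM in late liver. The mid and late libraries again all exceeded the controls. The log2 fold change was 3.55 ± 1.08 in mid liver (edgeR adjusted p = 0.0429) and 3.62 ± 1.13 in late liver (edgeR adjusted p = 0.0404), close to the threshold. The late liver call was lost when any control, mid or late library was left out (edgeR adjusted p = 0.0603 to 0.192), and among the libraries left out singly it remained only without early liver replicate 1 or 2, as did the mid liver call. Klrc1 and Klrc2 are close paralogs, and 49.6% of the 31-base words of Klrc1 transcripts also occur in Klrc2 transcripts, so the division of reads between them is uncertain. Summed, both genes gave 0.779 to 2.31 CPM in controls, 71.7 to 167.7 CPM in mid liver, and 140.7 and 205.8 CPM in late liver, which does not depend on that division.

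In TPM, Klrc1 made up 90.9% to 96.9% of the Klrc1 and Klrc2 total in mid and late liver, against 36.4% to 75.3% in controls. An annotated Klrc2 transcript with a retained intron took 42.9% to 60.7% of the Klrc2 TPM in those liver libraries and 9.80%, 18.3% and 71.1% in the controls, so control replicate 3 was above every liver library. The other Klrc2 transcripts together gave 1.30, 1.70 and 1.26 TPM in mid liver and 0.681 and 1.76 TPM in late liver, beside 0.343, 0.543 and 0.0463 TPM in controls.

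Klrd1, the CD94 chain shared by both heterodimers, behaved differently from its partners. It was already high in control cells, at 136.8, 134.6 and 152.4 CPM, and measured 104.8, 119.6 and 124.6 CPM in mid liver and 140.2 and 114.3 CPM in late liver. The mid liver libraries were all below the controls, whereas late liver replicate 1 lay among them. Neither difference passed the test, with a log2 fold change of −0.30 ± 0.22 in mid liver (edgeR adjusted p = 0.308) and −0.17 ± 0.25 in late liver (edgeR adjusted p = 0.608). The late liver value changed sign to 0.10 when late liver replicate 2 was left out.

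The ratio of the chains in TPM changed mainly on the NKG2 side. Klrd1 had 168.3, 194.9 and 236.1 TPM in controls. It had 93.1, 166.2 and 155.0 TPM in mid liver and 99.9 and 145.3 TPM in late liver. In TPM, which does not carry the scaling factors used for CPM, each of these liver libraries was thus below every control for Klrd1. In CPM late liver replicate 1 lay among the controls, and neither Klrd1 difference passed the test. On the TPM scale Klrd1 was present at 152.1, 186.4 and 362.5 times the sum of Klrc1 and Klrc2 in the 3 controls. The ratio was 3.70, 2.63 and 1.69 in mid liver and 2.15 and 1.29 in late liver. Undivided cells had a ratio of 409.1, above every control. Early liver replicate 1 (ratio 2.52) was near the mid liver libraries and early liver replicate 2 (ratio 211.9) was within the range of the controls.

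**Figure D1:**
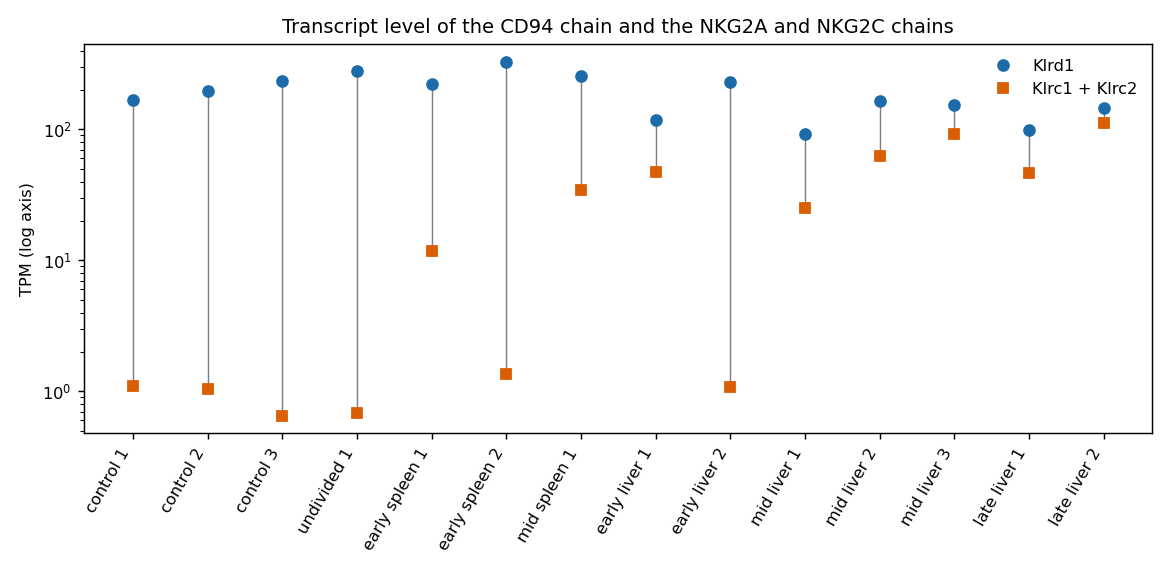
TPM on a log axis of Klrd1 (circles) and of Klrc1 plus Klrc2 (squares) in each of the 14 low-input libraries, joined by a line per library. Klrd1 ranged from 93.1 TPM in mid liver replicate 1 to 329.1 TPM in early spleen replicate 2. The NKG2 sum ranged from 0.651 TPM in control replicate 3 to 112.6 TPM in late liver replicate 2.

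Klrk1, which encodes NKG2D, rose in the liver as Klrc1 did, and at 83.5 and 134.3 TPM in late liver it came next to Klrd1 (99.9 and 145.3 TPM) among the 8 genes. Controls had 11.5, 7.62 and 2.24 CPM, with the day 18 control lowest. Mid liver libraries had 135.6, 160.8 and 154.3 CPM, and late liver libraries 220.7 and 230.7 CPM. The late, mid and control ranges did not overlap. The log2 fold change was 4.45 ± 1.15 in mid liver (edgeR adjusted p = 0.0291) and 4.97 ± 1.20 in late liver (edgeR adjusted p = 0.0203). Within the TG series late liver was 19.2 times control, and within the XC series 46.8 times. Early liver replicate 1 had 116.8 CPM and replicate 2 had 3.89 CPM. The late call was lost without control replicate 1 or 2, late liver replicate 1 or late liver replicate 2 (edgeR adjusted p = 0.0542 to 0.101), with a log2 fold change of 4.54 to 5.55 over all libraries left out. The mid liver call was lost without any 1 of the control or mid liver libraries (edgeR adjusted p = 0.0585 to 0.104).

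Klrc1, Klrc2 and Klrk1 were the 3 of 8 members called higher in mid liver and again in late liver, and no member was called lower. Over all 14616 tested genes, 17.3% were called higher and 13.9% lower in mid liver, and 19.8% higher and 17.7% lower in late liver. With mid and late liver pooled, the same 3 members were called higher, beside 23.1% of all genes higher and 23.5% lower. The median log2 fold change of the 8 members was 2.82 in mid liver and 2.35 in late liver, against −0.06 and −0.03 over all tested genes. When the day 18 library served as the only control, no member was called in either group by edgeR, which then called 1 and 0 of 13795 genes. With the day 0 controls alone 0 and 2 members were called in mid and late liver, beside 2361 and 4143 of 14337 genes. Liver cells were compared with spleen controls, so leukemia and tissue cannot be told apart here, and in sorted bulk RNA more cells with a transcript and more of it per cell cannot be told apart either.

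**Figure D2:**
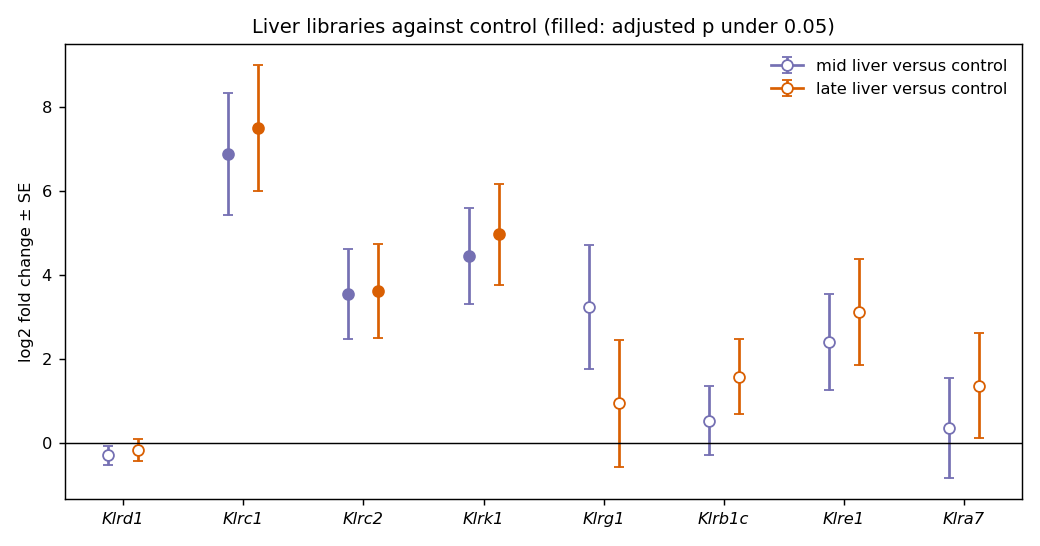
Log2 fold change against control ± SE for the 8 genes in mid liver (purple) and late liver (orange), filled where the edgeR adjusted p was under 0.05. Klrc1, Klrc2 and Klrk1 are filled in both groups, and Klrd1 lies near 0.

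Klrg1 did not follow the same course. It measured 0.884, 0.645 and 0.13 CPM in controls. Mid liver libraries had 23.4, 3.16 and 0.694 CPM, a spread of more than an order of magnitude between replicates. Replicates 1 and 2 were both taken at day 13, and both sequencing runs of replicate 1 gave a high value, at 18.7 and 19.4 CPM of the total count. Replicate 1 was the only mid liver library of the TG series, so library and series cannot be told apart here, and mid liver was 26.5 times control within the TG series and 4.97 times within the XC series. Late liver libraries had 1.63 CPM (75 counts) and 0.936 CPM (33 counts), both above every control but below 2 of the 3 mid libraries. The late replicates were close in TPM (0.563 and 0.615), and the discordance among liver replicates was in the early and mid groups.

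The log2 fold change of Klrg1 was 3.25 ± 1.48 in mid liver (edgeR adjusted p = 0.124) and 0.94 ± 1.52 in late liver (edgeR adjusted p = 0.639), and neither passed the test. Without early liver replicate 1 or 2 the mid liver difference was called (edgeR adjusted p = 0.0294 and 0.0306). The late value changed sign to −0.16 without late liver replicate 2. Late against mid liver gave −2.30 ± 1.62 (edgeR adjusted p = 0.928), with a range of −3.27 to −1.13 when single libraries were left out. Early liver replicate 1 had 7.99 CPM and replicate 2 had 0.094 CPM (3 counts). Klrg1 was the only member at 0 counts in undivided cells, which is at least 5.56-fold lower than the control mean if up to 3 counts are allowed for in that library. The day 18 control alone had 0.13 CPM (4 counts), close to the floor of 0.0994 CPM that 3 counts give in the undivided library.

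**Figure D3:**
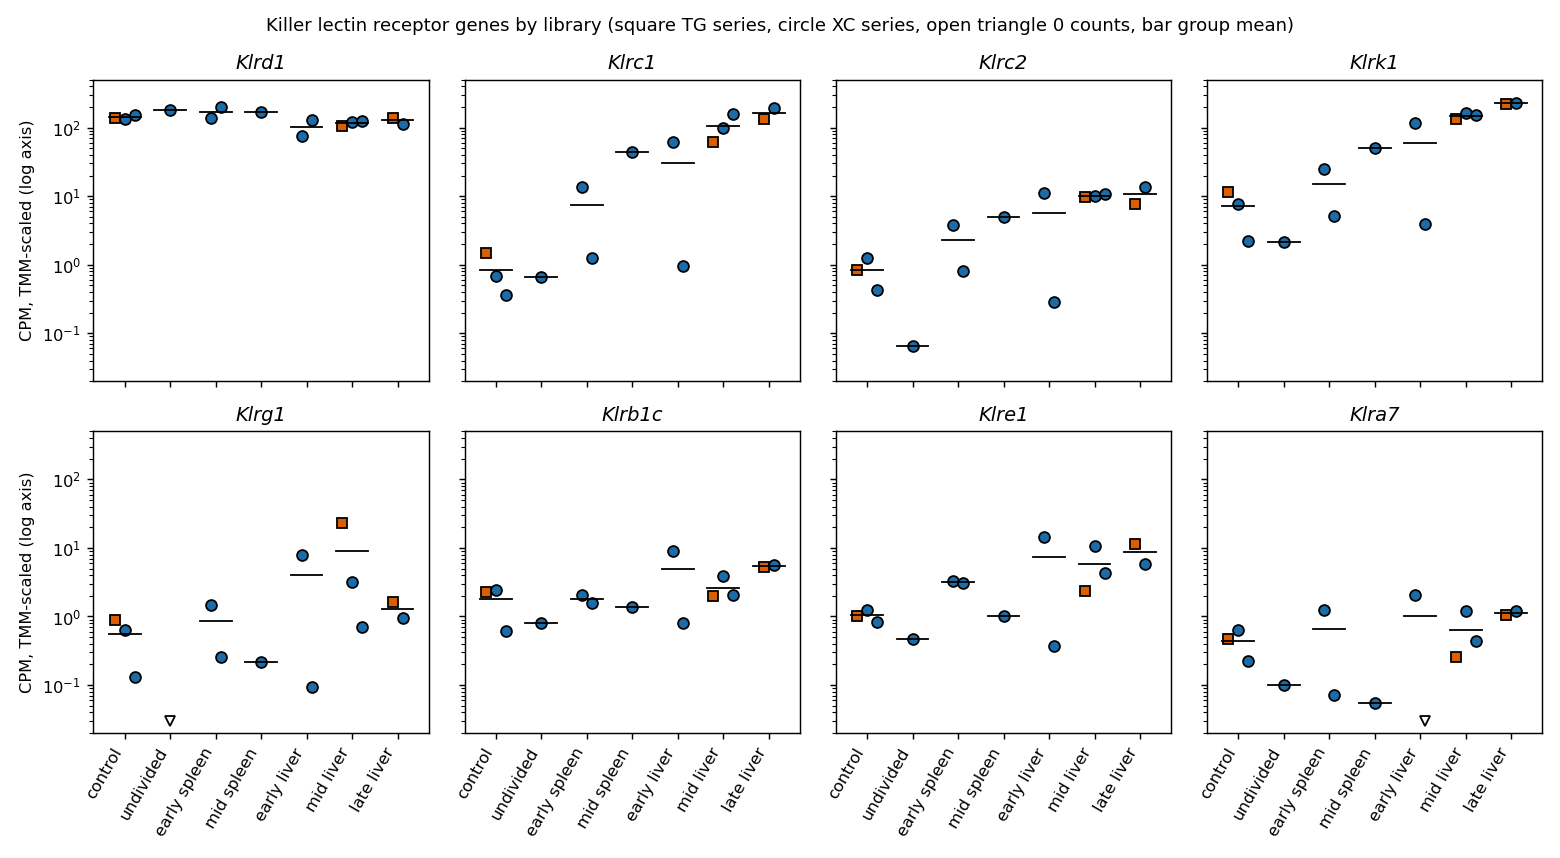
CPM on a log axis of each gene in the 14 low-input libraries by group, with squares for the TG series, circles for the XC series, open triangles for 0 counts and bars for group means. Klrc1, Klrc2, Klrk1 and Klre1 are higher in every mid and late liver library than in every control. How many of all tested genes separate in this way was not counted. The mid liver libraries of Klrg1 spread from 0.694 to 23.4 CPM.

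The other 3 members, Klrb1c (NK1.1, an activating receptor used as the NK cell marker of C57BL/6 mice), Klre1 (a receptor that pairs with KLRI proteins) and Klra7 (Ly49G, an inhibitory receptor for classical MHC class I), stayed low. Klrb1c had 2.28, 2.46 and 0.617 CPM in controls and 5.23 and 5.70 CPM in late liver. Both late libraries were above all controls, but the log2 fold change of 1.58 ± 0.90 did not pass the test (edgeR adjusted p = 0.187), and it did so without early liver replicate 1 or 2 (edgeR adjusted p = 0.0462 and 0.0458). In mid liver Klrb1c had 2.00, 3.84 and 2.08 CPM, which overlapped the controls (log2 fold change 0.53 ± 0.83, edgeR adjusted p = 0.635).

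Klre1 had the smallest adjusted p of the uncalled members in late liver. Controls had 1.02, 1.25 and 0.844 CPM, and every mid liver library (2.38, 10.8 and 4.35 CPM) and late liver library (11.5 and 5.76 CPM) was higher. Its log2 fold change was 2.40 ± 1.14 in mid liver (edgeR adjusted p = 0.137) and 3.12 ± 1.25 in late liver (edgeR adjusted p = 0.0842). DESeq2's Wald test called it in both (adjusted p = 0.0193 and 0.00566), as did edgeR without early liver replicate 1 or 2 (adjusted p = 0.0113 and 0.0114 in mid liver, 0.00484 and 0.005 in late liver). Klra7 never exceeded 2.06 CPM, and its log2 fold change was 0.35 ± 1.19 in mid liver and 1.36 ± 1.26 in late liver (edgeR adjusted p = 0.836 and 0.406). In mid liver this value turned to −0.38 without mid liver replicate 2 and to −0.06 without the day 18 control. For Klra7 and Klrb1c, 24.7% and 21.2% of 31-base words also occur in other genes, so their low counts are uncertain.

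Early liver cells, taken at day 7, gave 2 opposite pictures. Replicate 1 exceeded every control for each of the 7 members other than Klrd1. The share of all tested genes above every control in that library was not counted. Replicate 2 lay at or below the highest control for all 8 members, with Klra7 at 0 counts. It was below every control for Klrg1, Klrd1, Klrc2, Klre1 and Klra7, and within the control range for Klrc1, Klrk1 and Klrb1c. No member was called in this group and 0% of the 14616 genes were called, while at an unadjusted p under 0.05 edgeR had 3 members and 1497 genes, and DESeq2 called 1 member (Klrc1) and 351 genes. The log2 fold change was 5.10 ± 1.49 for Klrc1 (edgeR adjusted p = 0.454) and 3.25 ± 1.21 for Klrk1 (edgeR adjusted p = 0.468). Without replicate 2, 6 members were called, 5 higher and Klrd1 lower, beside 1385 genes higher and 518 lower of 14379, and without replicate 1 the value of Klrk1 turned to −0.72 and that of Klrc1 fell to 0.03.

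No member was called between late and mid liver by edgeR, which called 0% of genes (783 genes and 0 members at an unadjusted p under 0.05; DESeq2 called 34 genes and 0 members). Klrc1 and Klrk1 had log2 differences of 0.62 ± 1.23 and 0.52 ± 1.10 (late minus mid).

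In the spleen of leukemia-bearing mice the NKG2 genes were raised in some libraries. Klrc1 measured 13.7 and 1.27 CPM in early spleen and 44.8 CPM in mid spleen, and Klrk1 25, 5.12 and 51.2 CPM in the same order. Early spleen replicate 1 and the mid spleen library were above all controls for both genes, and early spleen replicate 2 was not. Klrc2 followed with 3.84, 0.799 and 4.94 CPM. Klrg1 had 1.48, 0.254 and 0.217 CPM, so early spleen replicate 1 exceeded every control for it as well, whereas mid spleen lay within the control range. Mid spleen against control gave a log2 fold change of 5.64 ± 1.79 for Klrc1 and 3.02 ± 1.44 for Klrk1, and neither was called (edgeR adjusted p = 0.841 for both) in a group of 1 library.

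No member was called in a comparison with spleen. Among 15465 genes, 0% were called in early spleen against control and in early liver against early spleen, and 0.00647% (1 gene) in mid spleen against control and in mid liver against mid spleen. At an unadjusted p under 0.05 edgeR had 0 members in early spleen and 1 (Klrc1) in mid spleen against control, and 1 (Klrd1) and 0 between liver and spleen at the early and mid times. DESeq2 called 0 members in all 4 comparisons and 11 to 61 genes. Both comparisons of spleen with control use the same control libraries as the liver comparisons do.

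Undivided cells did not have the mid and late liver levels of the NKG2 genes. They had 0.663 CPM of Klrc1, 0.0663 CPM of Klrc2 (2 counts) and 2.12 CPM of Klrk1, beside 179.7 CPM of Klrd1. Klrc2 and Klrk1 were below every control, and Klrd1 was above every control. The undivided library was set against 2 groups, and no member was called in either. edgeR called 0% of genes against control (183 genes and 0 members at an unadjusted p under 0.05; DESeq2 called 0 of both) and 0% against late liver (3787 genes and 3 members at an unadjusted p under 0.05; DESeq2 called 1877 genes and 4 members, Klrc1, Klrc2, Klrk1 and Klre1).

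Ordered by group mean, Klrk1 ran from late liver (225.7 CPM) through mid liver (150.2), early liver (60.4), mid spleen (51.2), early spleen (15.1) and control (7.12) to undivided (2.12). Only the late and mid liver, mid liver and early liver, mid spleen and early spleen, and control and undivided neighbours in that order had ranges apart. Klrc1 had the same order of means, except that mid spleen came before early liver, and only its mid liver and mid spleen neighbours had ranges apart. Klrd1 ran from undivided (179.7 CPM) through mid spleen, early spleen, control, late liver and mid liver to early liver (103.5 CPM), and only undivided and mid spleen had ranges apart among its neighbours. Mid spleen and undivided held 1 library each, so a range there is a single value. The share of all genes with ranges apart was not counted. Across the 14 low-input libraries, which share control groups and differ in depth, the log2 CPM of Klrc1 and Klrk1 had a Pearson r of 0.98, Klrc1 and Klrc2 of 0.93, and Klrd1 had negative values of −0.53 to −0.76 with the other 7.

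The position of the genes gave no uniform behaviour. In the 1778 kb from Klrb1a to Klra1, 92 genes are annotated and 21 were tested, of which 14 are not among the 8. In late liver 3 of the 14 were called higher and 1 lower, beside 19.8% and 17.7% of all genes. Of these 4, Gm156 and Gabarapl1 were chosen after their values were seen. Gm156, an annotated protein-coding gene near Klri2, had 2 counts in all controls together and measured 60.5 and 73.8 CPM in late liver (edgeR adjusted p = 0.0102). With so few control counts its fitted fold change depends on the prior count and is not given. It had 10.8, 20.7 and 22.4 CPM in mid liver and 0 counts in undivided cells. Gabarapl1, an autophagy gene near Klre1, rose by 2.77 ± 0.81 (edgeR adjusted p = 0.0336), a call that held in only 2 of 10 fits with 1 library left out. Klrd1, between Klre1 and Klrk1, had −0.17, between 3.12 (not called) for Klre1 and 4.97 for Klrk1.

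**Figure D4:**
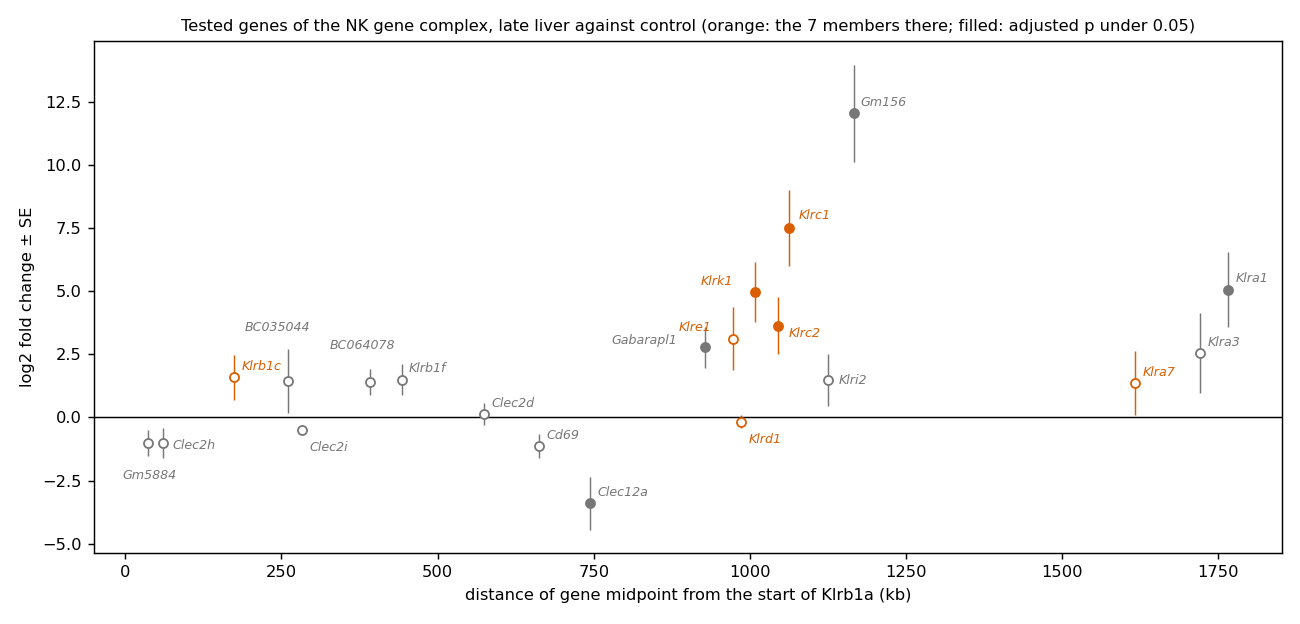
Log2 fold change ± SE in late liver against control of the 21 tested genes of the NK gene complex, by distance in kb of the gene midpoint from the start of Klrb1a, with the 7 members there in orange, filled points for an edgeR adjusted p under 0.05. Klrc1, Klrk1, Klrc2 and Gm156 rise within a short stretch that also holds Klrd1, at −0.17. The point of Gm156 depends on the prior count.

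Of the other lectin receptors of the complex, 22 were listed, 21 annotated and 8 tested, with 1 called higher and 1 lower in late liver and a median log2 fold change of 0.80. Klra1 (Ly49A, an inhibitory receptor) rose by 5.06 ± 1.48 (edgeR adjusted p = 0.0313) from 10 counts in all controls to 2.05 and 2.04 CPM in late liver. Clec12a, a receptor of myeloid cells, fell by 3.40 on the log2 scale (edgeR adjusted p = 0.0352), and its control values were 27.8, 7.31 and 1.49 CPM. The day 0 controls, which were high for it, were those with myeloid markers at 615.4 and 124.3 CPM. Klri2, the partner of Klre1, gave 1.47 ± 1.03 and was not called (edgeR adjusted p = 0.275).

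The transmembrane adaptors of the activating receptors were called in neither direction in late liver, and 1 of them was called lower in mid liver. Hcst (DAP10), through which NKG2D signals in T cells, had 253.4, 123.7 and 153.3 CPM in controls and 206.6 and 90.9 CPM in late liver (log2 fold change −0.50 ± 0.24, edgeR adjusted p = 0.125). Tyrobp (DAP12), the adaptor of NKG2C, had 151.8, 16.3 and 0.487 CPM in controls and 5.25 and 1.30 CPM in late liver (−3.68 ± 1.39, edgeR adjusted p = 0.0713), and its sign turned to 1.27 against the day 18 control alone. In mid liver Tyrobp fell by 4.12 (edgeR adjusted p = 0.0414), from the same controls, to 4.11, 1.23 and 0.402 CPM. Mid liver replicates 1 and 2 were thus above the day 18 control, and replicate 3 was below it. The day 0 controls, which were high for Tyrobp, were those with myeloid markers at 615.4 and 124.3 CPM. Hcst gave −0.62 ± 0.21 in mid liver (edgeR adjusted p = 0.052). Of 21 tested genes of adaptors and signalling, 4 rose and 3 fell in late liver, with a median of −0.12. Those that rose include Ptpn11 (the phosphatase SHP-2, 1.72 ± 0.20, edgeR adjusted p = 0.00627), Zap70 (a T cell receptor kinase, 1.41 ± 0.25, edgeR adjusted p = 0.0105), Sh2d2a (2.08 ± 0.41, edgeR adjusted p = 0.0123) and Fyn (0.79 ± 0.27, edgeR adjusted p = 0.0471). The Fyn call held in only 2 of 10 fits with 1 library left out. Pik3r1 fell by 1.61 and the kinase Syk by 4.76 (edgeR adjusted p = 0.0163 and 0.0366). Syk ranged from 0.26 to 15.7 CPM over the controls and from 0.199 to 0.501 CPM in late liver, so the ranges overlapped, while the myeloid markers ranged from 18.6 to 615.4 CPM over the controls.

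Ligands were measured in the same T cells. Of 8 tested, 1 rose and 1 fell in late liver, with a median of −0.04. H2-T23, which encodes the Qa-1 ligand of CD94/NKG2 receptors, gave 0.11 ± 0.26 (edgeR adjusted p = 0.766), and its sign changed without control replicate 1 or late liver replicate 1. Of the NKG2D ligands, Ulbp1 rose by 0.90 ± 0.30 (edgeR adjusted p = 0.0435) and H60b fell by 3.12 (edgeR adjusted p = 0.009), both at levels under 8 CPM. With 1 library left out, the Ulbp1 call held in only 2 of 10 fits and that of H60b in 8 of 10.

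Among other receptors associated with NK cells, 20 were listed. Of 16 tested, 9 rose and 1 fell in late liver, with a median of 1.73. Tigit, an inhibitory receptor, rose by 6.06 ± 0.73, Il2rb, the shared chain of the IL-2 and IL-15 receptors, by 2.04 ± 0.30, and Cd160 by 3.38 ± 0.75 (edgeR adjusted p = 0.00811, 0.00872 and 0.0168). Slamf6 rose by 1.26 ± 0.24 and Il18rap by 2.81 ± 0.73 (edgeR adjusted p = 0.0116 and 0.0249). Pilra fell by 4.04 (edgeR adjusted p = 0.0257), and it is a receptor of myeloid cells, whose markers were high in the day 0 controls.

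Of 14 tested transcription factors of NK and effector CD8+ T cells, 5 rose and 1 fell in late liver, with a median of 1.11. Tbx21 (T-bet) rose by 3.79 ± 0.86, Prdm1 (Blimp-1) by 3.49 ± 0.61 and Nfil3, which is needed for NK cell development, by 2.43 ± 0.59 (edgeR adjusted p = 0.0173, 0.0102 and 0.02). Ikzf2 (Helios) and Gata3 rose by 1.82 ± 0.61 and 0.57 ± 0.18 (edgeR adjusted p = 0.0479 and 0.0394). Both kept their direction with each library left out, but either call held in only 2 of these 10 fits. Bcl11b, a T cell identity factor whose loss in T cells is known to allow NK receptor expression, fell by 1.53 (edgeR adjusted p = 0.0126), from a control mean of 544.4 ± 223.3 CPM (SD, n = 3) to 118.7 and 218.0 CPM in late liver. With the day 18 control alone, no gene of these lists that is named above as called kept its call, since edgeR then called 0 genes in late liver.

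Among 9027 tested genes with a mean log2 CPM of at least 3, the patterns most like Klrg1 over the 14 libraries were those of Aen, Tmem161a, Sytl3, Faap100 and Errfi1 (Pearson r 0.86 to 0.89). The patterns most like the mean of the 8 members were those of Plek, Ccl5, Cd83, Cd44 and Serpina3g (r 0.92 to 0.96). These likenesses are descriptions across libraries that share groups, series and depth.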

How the data were processed

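RNA of sorted TCRTg101 was sequenced by the authors with a low-input protocol in 2 batches, and transcripts were quantified with kallisto. The authors deposited each estimated count and TPM value per transcript as kallisto gave it, with mm10 and GRCm38 named in the submitters' processing notes. The annotation release was not given in the sources used here. Gene sums were taken by the GENCODE vM21 annotation (98.25% of 118783 transcripts, at least 98.998% of counts per run), runs of 1 library were summed (26 runs, 15 libraries), and sums were rounded. The mean chi-square per gene was 1.87 to 24.9 between runs of the same library (11 pairs). It was 20.2 to 424.2 between runs of different libraries of the same group and day (12 pairs), so the ranges overlapped. Counting error alone would give a value near 1. Kallisto divides reads among similar transcripts, and this error is not in the tests. The deposited TPM were averaged over runs for comparisons between genes. The TG or XC prefix of the sample titles was taken as the series, since the sources used here do not name the libraries of each batch.

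Genes reaching 10 counts in 6 or more libraries were tested with edgeR 4.0.16 in R 4.3.3 (TMM, robust quasi-likelihood F test, group and series in the model). Benjamini-Hochberg adjustment ran over all tested genes with a threshold of 0.05. Liver, undivided and control comparisons used 11 libraries (14616 genes), and those with spleen of leukemia-bearing mice used 14 (15465 genes). A separate oligo-dT library was left out of all tests. Alternatives were RLE scaling, DESeq2 1.42.0, other count filters, no series term, other sets of libraries, first runs only, counts scaled from TPM and each library left out. An alternative with the day 18 control alone was added after seeing the data, as were all alternatives for named genes outside the 8. The fits were tested on simulated data with 200 changed genes. Log2 CPM used a prior count of 2. Tables and plots used Python 3.11.15 with pandas 2.3.3, numpy 2.4.6 and matplotlib 3.10.9.

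The 8 members and the gene lists were chosen with earlier results of these data known. Named genes were the 8 members, up to 6 called genes per list with the smallest adjusted p in late liver, and Hcst, Tyrobp, Klri1, Klri2 and H2-T23 by role, of which Klri1 did not pass the count filter. Counts of this depth make counting error small for the abundant members, and the 1 to 3 libraries per group limit the precision. No molecular identifiers are described in the sources used here, so the floor of 3 counts covers counting error only.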

Additional observations from a re-analysis of the deposited data

Results flagged for a closer look

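The single day 0 control library primed with oligo-dT, which entered no comparison, gave 173.9 CPM of the total count for Klrd1, above the 139.1 to 167.4 CPM of the 3 low-input controls. The same library gave 1.40 CPM for Klre1, where the controls had 0.922 to 1.29 CPM. The other 6 members were within or below the range of the controls there. Klrd1 also drew attention because all 3 mid liver libraries lay below every control and the mid spleen library lay above every control (controls 134.6 to 152.4 CPM). The direct comparison of mid liver with mid spleen gave a log2 fold change of −0.53 ± 0.32 (edgeR adjusted p = 0.711), and only 1 library stands for mid spleen.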

How the results depend on the processing

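Klrc1, Klrc2 and Klrk1 stayed higher in mid and late liver than in controls under every alternative run, while their calls did not all hold, and the cause was not tested. The limits are the 1 to 3 libraries per group, 1 late and 1 mid liver library in the TG series, controls of another tissue, and low counts of Klrg1, Klrb1c, Klre1 and Klra7. The calls also depended on the early liver libraries, whose difference enters the shared spread.

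The number of members called rose without a count filter to 5 in early, mid and late liver and in mid and late liver together, to 1 for late against mid liver, 2 for undivided and for early spleen against control, 7 for late liver against undivided, 3 for mid spleen against control and for early liver against early spleen, and 4 for mid liver against mid spleen. It fell to 0 with the day 18 control alone in mid, late and pooled liver, and to 0 in mid liver with the day 0 controls alone. DESeq2 called 1 member in early liver and 4 for late liver against undivided, and a fit of only the groups compared called 1 in mid spleen. With 1 library left out at a time, the number ranged from 0 to 6 in early liver, 0 to 5 in mid liver and in late liver, 0 to 4 in pooled liver and for late liver against undivided, and 0 to 1 for early liver against early spleen. Where this left 1 library in a group, that library was assumed to vary like the other groups.

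Over all genes, leaving out 1 library gave 0 to 5980 calls in mid liver and 0 to 6673 in late liver, 6 to 7619 in pooled liver and 0 to 1903 in early liver. The other alternatives gave 1 to 5718, 0 to 6283, 0 to 7557 and 0 to 1483 calls in the same order. They gave up to 434 calls for late against mid liver, 330 for undivided against control, 2512 for late liver against undivided, 643 and 631 for early and mid spleen against control, and 984 and 756 for liver against spleen at the early and mid times.

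Some log2 fold changes changed sign. With single libraries left out, their ranges were −0.38 to 0.84 for Klra7 in mid liver, −0.16 to 1.98 for Klrg1 and −0.36 to 0.095 for Klrd1 in late liver, −0.72 to 4.18 for Klrk1 in early liver and −0.23 to 0.53 for H2-T23 in late liver. Klra7 in mid liver went to −0.064 with the day 0 controls only, which is the same as without control replicate 3, and to −0.38 without mid liver replicate 2. Without late liver replicate 2, Klrg1 in late liver went to −0.16 and Klrd1 to 0.095. Klrk1 in early liver went to −0.72 without early liver replicate 1. In late liver, Tyrobp went to 1.27 with the day 18 control only, and H2-T23 to −0.14 without control replicate 1, −0.23 without late liver replicate 1 and −0.40 with the day 18 control only. Among the fold changes with single libraries left out, 346 kept their direction and call, 131 lost a call, 11 gained a call and 7 changed sign. Under the other alternatives 436 kept their direction and call, 73 lost a call, 19 gained a call and 3 changed sign. The number of likeness ranks that left the first 5 on 11 libraries was 4 of 10. No paired analysis was possible because replicate numbers follow accession order and pair no samples.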
